A study of Mus musculus with 8 samples.

Results

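The genes Foxa1, Foxa2, Foxa3, Cebpa, Cebpb, Cebpd, Onecut1 and Prox1 encode 8 transcription factors that set up and maintain the hepatocyte lineage. They were picked by name for their known role, although earlier results of these data were known, and they are 8 of the 54532 genes in the table. Gene expression was measured by RNA sequencing of whole liver tissue from mice of the METTL3-HKD group (n = 4) and the METTL3-Flox group (n = 4), and each liver gave 1 library. All 8 livers had undergone 1 h of partial warm ischemia and 6 h of reperfusion (I/R), so no sham liver enters any comparison. METTL3-HKD mice, described as heterozygous with reduced rather than absent METTL3, carried METTL3 flox/- together with Alb-iCre, a recombinase driven by the albumin promoter and therefore active in hepatocytes. METTL3-Flox mice were METTL3 flox/flox littermates, and the loxP sites flank exon 4. The strain was C57BL/6, and the age and sex of the sequenced mice are not given in the sources used here. METTL3 is the catalytic subunit of the complex that writes N6-methyladenosine (m6A) on mRNA, and the question addressed was whether its reduction in hepatocytes alters the levels of the lineage factors in the injured liver.

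FOXA proteins are forkhead pioneer factors, which open compacted chromatin at liver enhancers so that other factors can bind there. C/EBP proteins are basic leucine zipper factors that pair with each other, and in liver C/EBPα is tied to the quiescent, metabolic state of the hepatocyte, whereas C/EBPβ and C/EBPδ respond to cytokines and belong to the acute phase and regenerative response. HNF6, the product of Onecut1, and PROX1 act in the early liver bud and remain in adult hepatocytes, where they regulate metabolic genes together with HNF4α.

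Levels are given as FPKM, fragment counts divided by gene length and by library size. Between 15861245 and 18434488 reads per library lay on genes. Differences are log2 fold changes, METTL3-HKD minus METTL3-Flox, on the log2(FPKM + 0.1) scale, fitted with limma across the 16645 genes whose mean level reached 0.1 FPKM and adjusted by the Benjamini-Hochberg method over all of them. A gene was called where the adjusted p was under 0.05. Permutation tests of single genes were exact and two-sided, and with 4 against 4 livers their smallest possible p is 0.0286. Replicates are separate mice.

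Mettl3 itself was listed at 1.56, 1.39, 1.17 and 1.20 FPKM in livers 1 to 4 of the METTL3-HKD group and at 1.84, 1.16, 1.45 and 1.54 FPKM in METTL3-Flox livers 1 to 4. The ranges overlapped, and the log2 fold change was -0.16 (SE 0.165, limma adjusted p = 0.556). This value sums all exons, also those outside the deleted one. Liver cells that lack the recombinase do not carry out the recombination, so the value does not check the genotype. A further limit is that 18.4% of the exon bases of Mettl3 also belong to Tox4 on the opposite strand, and the strand setting of the counting is not given in the sources used here. All 10 neutrophil markers were called higher in METTL3-HKD livers, where their summed level was 344 to 1672 FPKM against 13.6 to 45.1 FPKM, and 0 of the 12 hepatocyte markers were called by limma (1 lower by voom, 3 lower at an unadjusted p under 0.05), although all 12 had a log2 fold change below 0 with a median of -0.39. The hepatocyte marker sums were 23540 to 34923 in METTL3-HKD and 30874 to 36032 FPKM in METTL3-Flox livers.

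All 8 member genes are annotated at the same coordinates in the deposited table and in the GENCODE M21 annotation of GRCm38. Cebpa (ENSMUSG00000034957) spans 35119293 to 35121928 on the plus strand of chromosome 7, Cebpb (ENSMUSG00000056501) spans 167688915 to 167690418 on the plus strand of chromosome 2, and Cebpd (ENSMUSG00000071637) spans 15887286 to 15891031 on the plus strand of chromosome 16. Each of these C/EBP genes has a single exon. The FOXA genes lie on minus strands, with Foxa1 (ENSMUSG00000035451) at 57540628 to 57546916 on chromosome 12, Foxa2 (ENSMUSG00000037025) at 148042877 to 148046969 on chromosome 2 and Foxa3 (ENSMUSG00000040891) at 19013284 to 19023538 on chromosome 7. Onecut1 (ENSMUSG00000043013) spans 74861921 to 74891781 on the plus strand of chromosome 9, and Prox1 (ENSMUSG00000010175) spans 190118035 to 190170714 on the minus strand of chromosome 1.

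The promoters of Cebpa and Cebpb are shown because Cebpa was the only member called and Cebpb was the relative whose level stood in a different relation to it in each group. Each line gives the 250 bases before the annotated start, from RefSeq on GRCm38.p6, plus strand, at chr7:35119043-35119292 for Cebpa and chr2:167688665-167688914 for Cebpb. Capitals mark TTGCG (the core of a C/EBP site), TGACG (the core of a cAMP response element) and the box motif TATAAA, searched on both strands. As background, C/EBP proteins are known to bind the mouse Cebpa promoter, and CREB is known to bind the promoter of Cebpb.
Cebpa: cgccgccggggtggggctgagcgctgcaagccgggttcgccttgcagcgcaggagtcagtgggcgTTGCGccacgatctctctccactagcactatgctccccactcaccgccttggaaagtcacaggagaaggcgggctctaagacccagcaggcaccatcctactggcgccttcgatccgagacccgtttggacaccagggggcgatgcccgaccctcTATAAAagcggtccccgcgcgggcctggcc
Cebpb: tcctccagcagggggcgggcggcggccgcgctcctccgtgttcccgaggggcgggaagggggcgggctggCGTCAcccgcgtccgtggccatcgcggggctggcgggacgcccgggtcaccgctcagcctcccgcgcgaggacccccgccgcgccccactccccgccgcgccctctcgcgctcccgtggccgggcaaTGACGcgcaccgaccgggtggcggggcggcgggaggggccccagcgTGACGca

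In the Cebpa window, TTGCG lay at -185 to -181 and TATAAA at -30 to -25, counted from the start. The Cebpb window held TGACG at -53 to -49 and at -7 to -3 and its reverse complement at -180 to -176, and had neither of the other motifs. Among 32851 RefSeq promoter windows of the same length, 14.5% held the C/EBP core, 17.8% the cAMP response core and 12.4% the TATA box. RefSeq windows were found for 7 of the 8 members. A match is a description of letters, and binding was not measured.

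Of the 8 members, 1 was called lower in METTL3-HKD livers and 0 were called higher, and the called gene was Cebpa. Across all tested genes 6.63% were called lower, 9.05% higher and 15.7% in either direction, so 1 call in 8 genes is close to the background. When an absolute log2 fold change of 1 or more was also required, 6.22% of all genes passed and no member did. At an unadjusted p under 0.05, 1 member passed (lower) and 0 passed higher, as against 5305 genes in all, and voom on the rebuilt reads also called 1 member lower and 0 higher. The groups did not overlap for Cebpa alone among the members, a pattern that 9.95% of all genes showed in the lower direction, 12.7% in the higher direction and 22.6% in either.

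**Figure D1:**
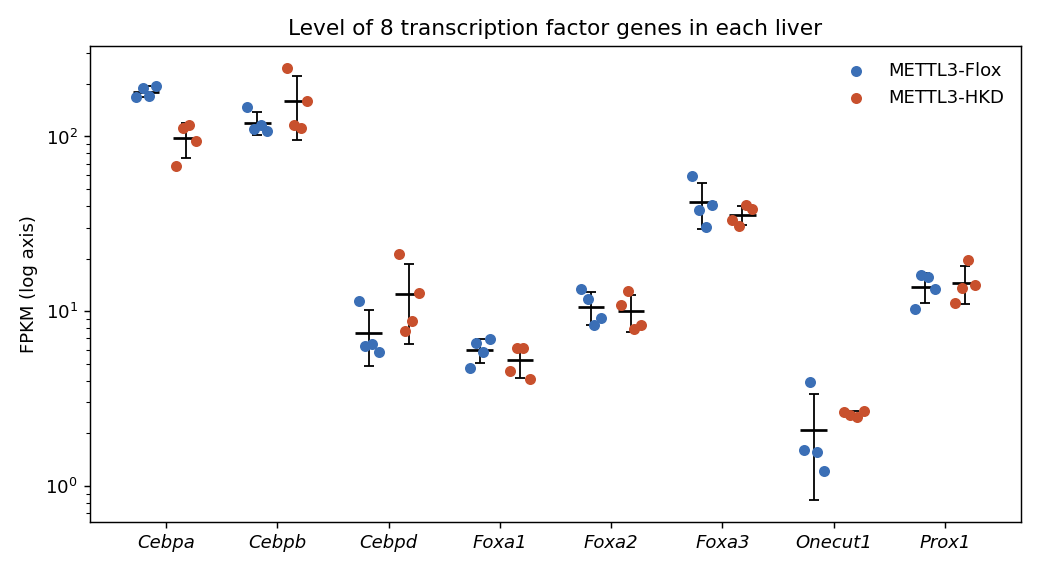
Levels of the 8 transcription factor genes in each liver, in FPKM on a log axis, with METTL3-Flox livers in blue and METTL3-HKD livers in red. Points are single livers and bars give the mean ± SD of 4 livers. Cebpa separates the groups, from 67.7 to 117 FPKM in METTL3-HKD and from 169 to 196 FPKM in METTL3-Flox livers, and the ranges of the other 7 genes overlap.

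Cebpa, which restrains hepatocyte proliferation and drives genes of glucose, lipid and nitrogen metabolism, stood at 67.7, 112, 117 and 94.6 FPKM across METTL3-HKD livers 1 to 4. In METTL3-Flox livers 1 to 4 it stood at 169, 189, 169 and 196 FPKM. Every METTL3-HKD liver was below every METTL3-Flox liver, and METTL3-HKD liver 1 was the lowest. The METTL3-HKD mean was 97.7 ± 22.1 FPKM and the METTL3-Flox mean 181 ± 13.5 FPKM (SD, n = 4 each), a difference of -46.0%. Cebpa fell by 0.91 on the log2 scale (SE 0.169, 95% interval -1.30 to -0.53, limma adjusted p = 0.0115), and the exact permutation p was 0.0286. Among all tested genes, 4.53% had a lower log2 fold change. These values rest on 3592 to 5549 reads in METTL3-HKD and 6336 to 8307 reads in METTL3-Flox livers.

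The level of Cebpa can be set beside that of the hepatocyte markers. In a bulk sample, fewer cells of a type and less RNA per cell cannot be told apart. METTL3-HKD livers 1 and 2 had the lowest hepatocyte marker sums, 23540 and 25329 FPKM. METTL3-HKD livers 3 and 4 had sums of 32593 and 34923 FPKM, inside the METTL3-Flox range of 30874 to 36032 FPKM, and Cebpa levels of 117 and 94.6 FPKM. By the mean log2 level of the 12 markers, which weights abundant and rare markers alike, METTL3-HKD liver 3 was at 0.099, below the METTL3-Flox range of 0.12 to 0.38, and METTL3-HKD liver 4 was at 0.17, inside it (log2, relative to the mean of the 8 livers). The part of hepatocyte content in the Cebpa difference was not tested, and the following subtraction is a description. When that mean log2 level was subtracted in each liver, the log2 fold change of Cebpa was -0.50 (SE 0.217, limma adjusted p = 0.143) and no longer passed, and the median of all tested genes moved to 0.42. This subtraction shifts every gene by the same amount, so it leaves the difference of Cebpa from that median as it was. Scaled to the reads on genes, Cebpa was lower by a log2 value of -0.70 (limma adjusted p = 0.0253), with a median of all genes of 0.19. Without METTL3-HKD liver 1 it was -0.75 (limma adjusted p = 0.0139).

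**Figure D2:**
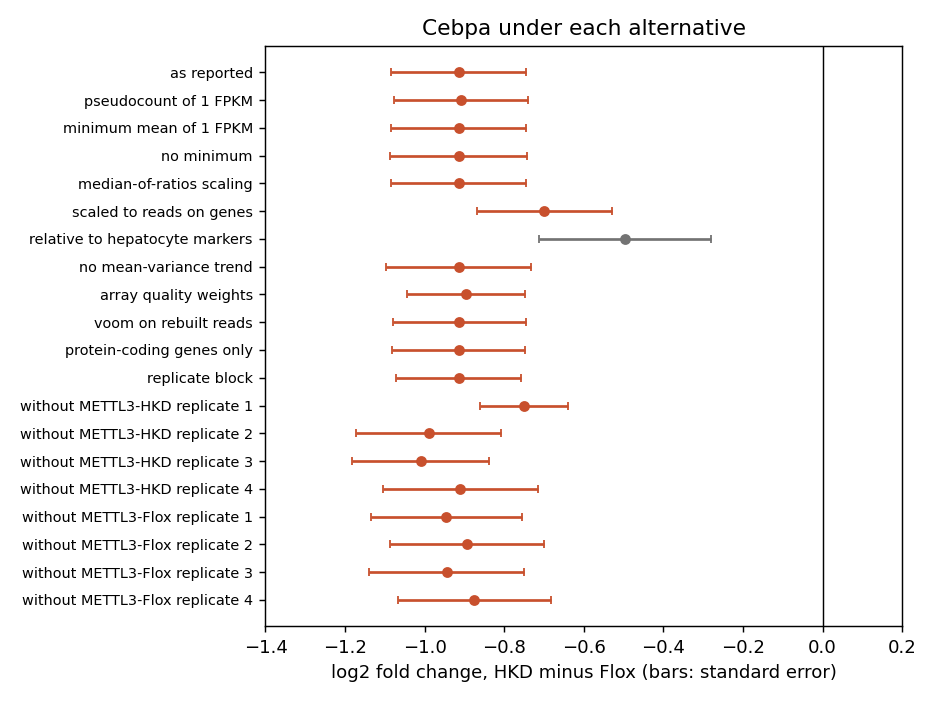
Log2 fold change of Cebpa, METTL3-HKD minus METTL3-Flox, as reported and under 19 alternatives, with bars of 1 standard error. Red points have an adjusted p under 0.05, and the grey point, at -0.50, is the value relative to the hepatocyte markers.

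Cebpb, the C/EBP gene of the acute phase and of liver regeneration, was measured at 248, 117, 111 and 159 FPKM across METTL3-HKD livers 1 to 4. It was measured at 147, 110, 116 and 107 FPKM in METTL3-Flox livers 1 to 4. METTL3-HKD liver 1 was the highest of all 8, METTL3-HKD livers 2 and 3 lay within the METTL3-Flox range, and the groups overlapped. The means of 159 ± 63.2 FPKM and 120 ± 18.5 FPKM (SD, n = 4 each) gave a log2 fold change of 0.34 (SE 0.245, 95% interval -0.22 to 0.89, limma adjusted p = 0.376), which is within the spread between livers. Without METTL3-HKD liver 1 it was 0.10. Of the exon bases of Cebpb, 20.7% also belong to Tmem189 on the opposite strand, a gene at 7.67 FPKM in METTL3-HKD and 4.47 FPKM in METTL3-Flox livers, so reads there cannot be assigned with certainty.

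Cebpd, the C/EBP gene that responds early to interleukins, was at 21.2, 7.70, 8.78 and 12.7 FPKM across METTL3-HKD livers 1 to 4 and at 11.4, 6.33, 6.44 and 5.80 FPKM in METTL3-Flox livers 1 to 4. Liver 1 was the highest of its group in both genotypes, and the overlap came from METTL3-Flox liver 1. The log2 fold change of 0.68 (SE 0.328, 95% interval -0.060 to 1.42) did not pass (limma adjusted p = 0.189, exact permutation p = 0.171). The coefficient of variation was 48.6% in METTL3-HKD and 35.0% in METTL3-Flox livers. Of its exon bases, 15.0% also belong to Spidr on the opposite strand.

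Within each liver, the ratio of Cebpb to Cebpa compares both genes on the same length-corrected scale and is free of the scaling between libraries. It was 3.66, 1.04, 0.954 and 1.68 in METTL3-HKD livers 1 to 4. In METTL3-Flox livers 1 to 4 it was 0.870, 0.583, 0.684 and 0.545. The ratio exceeded 1 in 3 of 4 METTL3-HKD livers and in 0 of 4 METTL3-Flox livers, and the groups did not overlap. Of the summed C/EBP level, Cebpa held 20.1% to 49.3% in METTL3-HKD livers and 51.6% to 63.5% in METTL3-Flox livers. The ratio of Cebpd to Cebpa ran from 0.0689 to 0.313 in METTL3-HKD and from 0.0296 to 0.0674 in METTL3-Flox livers, again without overlap. Since Cebpa is in the denominator of both ratios, its own difference enters them, and no test was run on them. The summed level of the 3 C/EBP genes overlapped, with 236 to 337 FPKM in METTL3-HKD and 292 to 328 FPKM in METTL3-Flox livers.

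**Figure D3:**
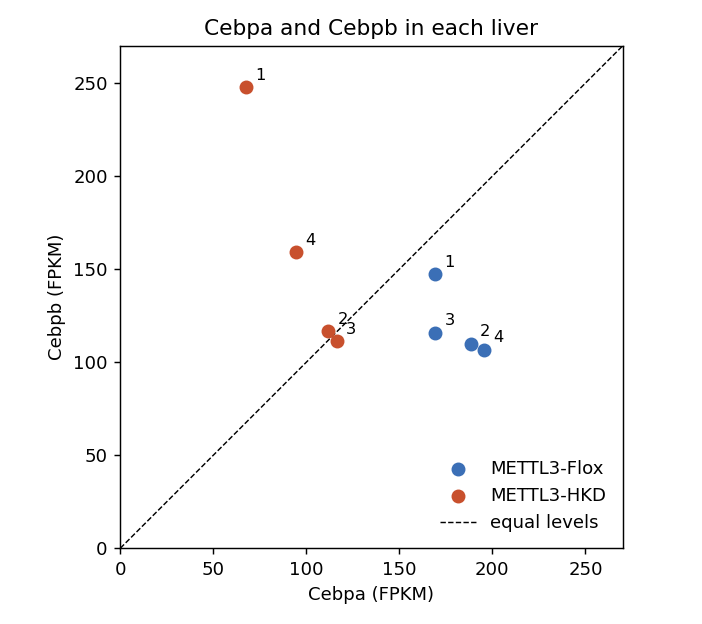
Cebpb against Cebpa in each of the 8 livers, both axes in FPKM, with livers numbered within their group and a dashed line of equal levels. The METTL3-Flox livers all lie below the line, METTL3-HKD liver 3 is just below it at a ratio of 0.954, and METTL3-HKD liver 1 is farthest above it at 3.66.

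Cebpb and Cebpd are also expressed in neutrophils and macrophages. METTL3-HKD liver 1, which had the highest Cebpb and Cebpd and the lowest Cebpa, also had the highest neutrophil marker sum at 1672 FPKM. METTL3-HKD liver 3, with the lowest Cebpb and the highest Cebpa of its group, had the lowest sum of the group at 344 FPKM. The lowest Cebpd of that group was in liver 2, at 7.70 FPKM beside 8.78 FPKM in liver 3. S100a9, a neutrophil granule protein, was at 867 FPKM in METTL3-HKD liver 1 and at 195 to 326 FPKM in the other METTL3-HKD livers, as against 6.55 to 20.5 FPKM in METTL3-Flox livers. Monocyte markers summed to 32.1 to 117 FPKM against 11.7 to 24.1 FPKM, with 4 of 6 (66.7%) called higher, beside 9.05% of all genes. Macrophage and Kupffer cell markers summed to 140 to 280 against 261 to 621 FPKM, with 4 of 10 (40%) called lower, beside 6.63% of all genes. The part of these cells in the Cebpb and Cebpd values was not tested.

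Foxa3, the most abundant FOXA gene of the adult liver, was at 33.2, 30.6, 40.4 and 38.5 FPKM across METTL3-HKD livers 1 to 4 and at 59.2, 38.0, 30.4 and 40.3 FPKM in METTL3-Flox livers 1 to 4. METTL3-Flox liver 1 was the highest and METTL3-Flox liver 3 the lowest, so the METTL3-HKD values lay inside the METTL3-Flox range. The log2 fold change was -0.20 (SE 0.192, 95% interval -0.63 to 0.23, limma adjusted p = 0.511).

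Foxa2, a pioneer factor that also regulates bile acid and lipid genes, was at 10.8, 13.1, 7.85 and 8.29 FPKM across METTL3-HKD livers 1 to 4. In METTL3-Flox livers 1 to 4 it was at 13.3, 11.8, 8.27 and 9.15 FPKM. The ranges nearly coincided, and the log2 fold change was -0.091 (SE 0.201, 95% interval -0.54 to 0.36, limma adjusted p = 0.794).

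Foxa1, the close relative of Foxa2 with which it shares targets, was at 4.56, 6.12, 6.12 and 4.08 FPKM across METTL3-HKD livers 1 to 4 and at 4.70, 6.53, 5.85 and 6.89 FPKM in METTL3-Flox livers 1 to 4. METTL3-HKD liver 4 was the lowest and METTL3-Flox liver 4 the highest, and the groups overlapped. Its log2 fold change was -0.20 (SE 0.172, 95% interval -0.59 to 0.18, limma adjusted p = 0.454). Scaled to the reads on genes, which moved the median of all genes to 0.19, the log2 fold changes were 0.0086 for Foxa1, 0.12 for Foxa2 and 0.016 for Foxa3. Relative to that median they were -0.18, -0.069 and -0.18, beside -0.20, -0.088 and -0.20 in the deposited values. None of the 3 FOXA genes passed under any of the 19 alternatives.

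The balance among the FOXA genes also overlapped between groups. Foxa3 made up 61.4% to 75.7% of their summed level in METTL3-HKD livers and 67.5% to 76.7% in METTL3-Flox livers. The ratio of Foxa1 to Foxa2 was below 1 in all 8 livers, from 0.423 to 0.780 in METTL3-HKD and from 0.353 to 0.753 in METTL3-Flox livers.

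Onecut1, which encodes HNF6, an activator of Foxa2 in the embryonic liver, was at 2.65, 2.54, 2.46 and 2.68 FPKM across METTL3-HKD livers 1 to 4. The METTL3-Flox livers 1 to 4 had 1.61, 3.94, 1.57 and 1.21 FPKM. The METTL3-HKD livers were nearly equal, with a coefficient of variation of 3.88%, while METTL3-Flox liver 2 was above and the other METTL3-Flox livers below all of them. The log2 fold change was 0.44 (SE 0.305, 95% interval -0.25 to 1.14, limma adjusted p = 0.351, exact permutation p = 0.571). Without METTL3-Flox liver 2 it was 0.79 and passed (limma adjusted p = 0.0210). Onecut1 had the fewest reads of the members, 183 to 219 in METTL3-HKD and 80 to 262 in METTL3-Flox livers, and 52.8% of its exon bases also belong to Gm20649 on the same strand, which is listed at 0 in every liver. How reads on shared bases were counted is not given in the sources used here, so the level of Onecut1 is uncertain.

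Prox1, a homeodomain factor that restrains HNF4α and Cyp7a1 activity in hepatocytes, was at 11.1, 13.5, 19.5 and 14.1 FPKM across METTL3-HKD livers 1 to 4 and at 10.3, 16.0, 15.7 and 13.4 FPKM in METTL3-Flox livers 1 to 4. METTL3-HKD liver 3 was the highest, METTL3-Flox liver 1 the lowest, and the other values were mixed. The log2 fold change was 0.064 (SE 0.194, 95% interval -0.37 to 0.50, limma adjusted p = 0.854). Prox1 also marks lymphatic endothelium, whose markers summed to 19.5 to 28.7 FPKM in METTL3-HKD and 17.8 to 25.0 FPKM in METTL3-Flox livers. Of 6 such markers, 1 (16.7%) was called higher, beside 9.05% of all genes. Cholangiocytes, which also express FOXA genes and Onecut1, had marker sums of 124 to 372 against 56.6 to 82.9 FPKM, with 4 of 6 markers (66.7%) called higher, beside 9.05% of all genes. The part of those cells in the member values was not tested.

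**Figure D4:**
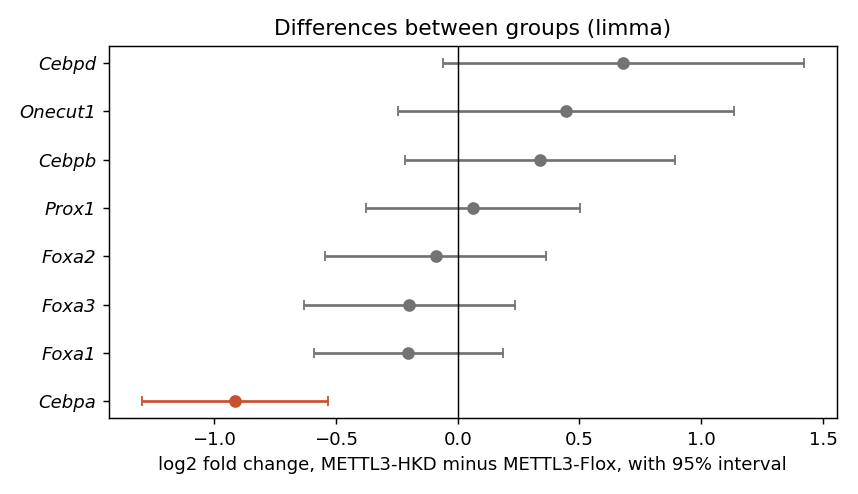
Log2 fold changes of the 8 members, METTL3-HKD minus METTL3-Flox, ordered by size, with 95% intervals from the limma fit. The interval of Cebpa, -1.30 to -0.53, lies below 0, and the other 7 intervals cross 0.

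Ordered by median FPKM in METTL3-Flox livers, Cebpa was first at 179, followed by Cebpb at 113, Foxa3 at 39.1, Prox1 at 14.5, Foxa2 at 10.4, Cebpd at 6.39, Foxa1 at 6.19 and Onecut1 at 1.59. The ranges of Prox1 and Foxa2, of Foxa2 and Cebpd, and of Cebpd and Foxa1 overlapped, and the other neighbours in this order did not. The last place of Onecut1 is uncertain because of its shared exon bases. In METTL3-HKD livers the medians were 138 for Cebpb, 103 for Cebpa, 35.9 for Foxa3, 13.8 for Prox1, 10.7 for Cebpd, 9.53 for Foxa2, 5.34 for Foxa1 and 2.59 for Onecut1. Cebpb and Cebpa overlapped there, with Cebpb above Cebpa in 3 of 4 livers, as did Prox1 and Cebpd, and Cebpd and Foxa2. The exchange of the first and second places, and of Cebpd and Foxa2, was the change in order, and in METTL3-HKD livers neither exchanged pair was separated beyond its spread.

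Cofactors and relatives of the C/EBP proteins were examined next, with Cebpz, which shares their name, among them. Of 7 such genes, 3 were called higher and 0 lower (0 lower by voom and 1 at an unadjusted p under 0.05), which is 42.9% higher beside 9.05% of all genes, with a median log2 fold change of 0.52 beside -0.0028 over all genes. Trib1, a pseudokinase that directs C/EBPα protein to degradation, was at 21.2, 20.1, 9.65 and 13.9 FPKM across METTL3-HKD livers 1 to 4 and at 9.88, 7.32, 5.14 and 6.05 FPKM in METTL3-Flox livers 1 to 4. The groups overlapped only through METTL3-HKD liver 3 and METTL3-Flox liver 1. Trib1 rose by 1.16 on the log2 scale (SE 0.277, limma adjusted p = 0.0266), and the call was lost without METTL3-HKD liver 1, 2 or 4 and without METTL3-Flox liver 2, 3 or 4, with limma adjusted p-values of up to 0.0801. Trib2, which has the same activity toward C/EBPα, rose from 0.454 ± 0.145 to 0.937 ± 0.201 FPKM (SD, n = 4 each), by 0.92 on the log2 scale (limma adjusted p = 0.0340). That call was lost without METTL3-HKD liver 1, 2 or 4 or any METTL3-Flox liver, with limma adjusted p-values of up to 0.0945, and also with no minimum (limma adjusted p = 0.0696) and with the replicate block (limma adjusted p = 0.0924). Cebpz, a CCAAT-binding protein that is no basic leucine zipper factor, rose from 6.69 ± 0.740 to 9.62 ± 0.432 FPKM (SD, n = 4 each), by 0.52 on the log2 scale (limma adjusted p = 0.0116), and kept the call under all 19 alternatives.

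Forkhead genes outside the FOXA group showed 2 called higher and 1 called lower among 15 tested, with a median log2 fold change of -0.0066, and 6 further genes were below the minimum. These shares of 13.3% and 6.67% are close to the 9.05% and 6.63% of all genes. Foxn2 rose by 0.71 (limma adjusted p = 0.0111), from 2.20 ± 0.218 to 3.67 ± 0.507 FPKM. Foxj3 rose by 0.58 (limma adjusted p = 0.0314), from 1.14 ± 0.0689 to 1.77 ± 0.322 FPKM. Foxn3, a forkhead repressor, fell by 0.71 (limma adjusted p = 0.0324), from 4.24 ± 0.746 to 2.56 ± 0.537 FPKM. The Foxn3 call was lost without METTL3-HKD liver 1, 2 or 4 or METTL3-Flox liver 2, 3 or 4, and the Foxj3 call without METTL3-HKD liver 1 or 2 or METTL3-Flox liver 2, 3 or 4, with limma adjusted p-values of up to 0.0920 and 0.0836. Relative to the hepatocyte markers Foxn3 had a log2 fold change of -0.29 (limma adjusted p = 0.458) and Foxj3 did not pass (limma adjusted p = 0.0607). Foxn3 also did not pass when scaled to the reads on genes (limma adjusted p = 0.116), without a mean-variance trend (limma adjusted p = 0.0506) or with no minimum (limma adjusted p = 0.0524), and Foxj3 did not pass with no minimum (limma adjusted p = 0.0595) or with the replicate block (limma adjusted p = 0.0740).

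Other liver-enriched transcription factors were set beside the members. Of 22 genes, 0 were called higher (also by voom and at an unadjusted p under 0.05) and 4 lower, which is 18.2% beside 6.63% of all genes, and the median log2 fold change was -0.22, beside -0.39 for the hepatocyte markers. Mlxipl, the carbohydrate response factor ChREBP, was at 4.69, 6.96, 6.68 and 6.40 FPKM across METTL3-HKD livers 1 to 4 and at 8.42 to 16.4 FPKM in the METTL3-Flox livers. Nr1h4, the bile acid receptor FXR, was at 21.3, 26.9, 41.2 and 38.5 FPKM in METTL3-HKD and at 51.8, 61.5, 59.7 and 62.1 FPKM in METTL3-Flox livers. For both genes the groups did not overlap. Mlxipl fell by 1.03 (limma adjusted p = 0.0151) and Nr1h4 fell by 0.92 (limma adjusted p = 0.0190) on the log2 scale.

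Hnf4a, the central nuclear receptor of the hepatocyte programme and a partner of most members, was at 119, 109, 114 and 103 FPKM across METTL3-HKD livers 1 to 4 and at 159, 134, 168 and 160 FPKM in METTL3-Flox livers 1 to 4. It fell by 0.48 on the log2 scale (SE 0.103, limma adjusted p = 0.0187). Rxra, the dimer partner of the liver nuclear receptors, fell by 0.45 (limma adjusted p = 0.0263), from 103 ± 3.57 to 75.8 ± 9.80 FPKM (SD, n = 4 each). The other 18 genes had log2 fold changes from -0.52 to 0.25. The calls of Hnf4a and Rxra were lost when scaled to the reads on genes (limma adjusted p = 0.191 and 0.160) and with the replicate block (limma adjusted p = 0.0543 and 0.0563), and those of all 4 genes were lost relative to the hepatocyte markers (limma adjusted p from 0.0996 to 0.914). Leaving out METTL3-Flox liver 3 or 4 also ended the calls of Nr1h4, Hnf4a and Rxra, and leaving out METTL3-HKD liver 2 or METTL3-Flox liver 2 those of Nr1h4 and Rxra, with limma adjusted p-values of up to 0.0691.

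**Figure D5:**
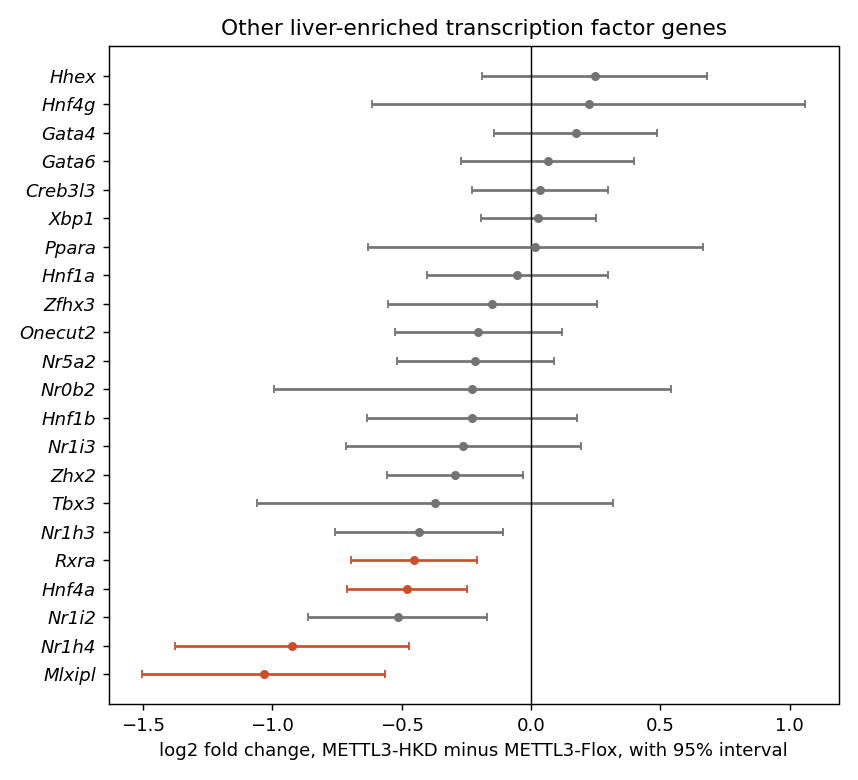
Log2 fold changes, METTL3-HKD minus METTL3-Flox, of 22 other liver-enriched transcription factor genes, with 95% intervals from the limma fit. The 4 red genes, Mlxipl, Nr1h4, Hnf4a and Rxra, were called lower, and the 18 grey ones were not called.

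Genes that are textbook targets of the members were counted as well. Of 22 genes, 2 were called lower and 1 higher by limma. By that rule the shares of 9.09% and 4.55% were near the 6.63% and 9.05% of all genes. Voom called 4 lower and 1 higher, and at an unadjusted p under 0.05, 6 passed lower and 1 higher. Over all 16645 tested genes voom called 1202 lower and 1542 higher, and 5305 passed at an unadjusted p under 0.05. A log2 fold change below 0 was found for 20 of the 22 targets, beside 50.3% of all tested genes. The median log2 fold change was -0.43, beside -0.39 for the hepatocyte markers, some of which are in both lists; the part of hepatocyte content was not tested. Cyp7a1, the rate-limiting enzyme of bile acid synthesis, was at 1.20, 1.67, 2.90 and 3.39 FPKM across METTL3-HKD livers 1 to 4 and at 7.47, 52.6, 19.3 and 23.6 FPKM in METTL3-Flox livers 1 to 4, without overlap. Cyp7a1 fell by 3.22 on the log2 scale (SE 0.546, limma adjusted p = 0.00896). Cyp8b1, the sterol 12-hydroxylase of the same pathway, fell by 2.27 (SE 0.227, limma adjusted p = 0.00190), from 133 ± 21.7 to 28.3 ± 7.97 FPKM (SD, n = 4 each). Igfbp1, a secreted growth factor binding protein with FOXA sites in its promoter, was at 23.2 to 65.4 FPKM in METTL3-Flox and 84.6 to 440 FPKM in METTL3-HKD livers and rose by 2.05 on the log2 scale (SE 0.492, limma adjusted p = 0.0265). The Igfbp1 call was lost without METTL3-HKD liver 2 or METTL3-Flox liver 2 or 4 (limma adjusted p up to 0.0739). The other 19 targets had log2 fold changes from -1.63 to 0.37.

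Acute phase genes, which C/EBPβ and C/EBPδ activate, gave 0 calls among 18 genes by limma, 1 by voom (lower) and 5 at an unadjusted p under 0.05 (lower), with 17 of 18 log2 fold changes below 0 and a median of -0.55. Over all tested genes, limma called 15.7%, and 50.3% had a log2 fold change below 0. Haptoglobin (Hp) was at 7612, 7551, 8951 and 9135 FPKM across METTL3-HKD livers 1 to 4 and at 20463, 11240.3, 12438 and 10209.6 FPKM in METTL3-Flox livers 1 to 4. The groups did not overlap, and METTL3-Flox liver 1 was the highest. Its log2 fold change of -0.66 (SE 0.306) did not pass (limma adjusted p = 0.174), nor did that of hemopexin (Hpx), -0.82 (SE 0.342, limma adjusted p = 0.136). Neither was called under any of the 19 alternatives, but the limma adjusted p depended on the setting. It ran from 0.0597 (voom) to 0.604 (no minimum) for Hp and from 0.0535 (voom) to 0.545 (no minimum) for Hpx. The SE of Hp was 0.221 without a mean-variance trend and 0.724 with no minimum.

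Upstream of Cebpb and Cebpd, cytokines, their receptors and the kinases and factors behind them gave 9 genes called higher and 1 lower among 17, with a median log2 fold change of 0.67. These shares of 52.9% higher and 5.88% lower stand beside 9.05% and 6.63% of all genes. Il1b, the macrophage and neutrophil cytokine interleukin-1β, rose from 1.83 ± 0.694 to 34.1 ± 25.3 FPKM, by 3.93 on the log2 scale (SE 0.504, limma adjusted p = 0.00381). Tnf rose by 2.06 (limma adjusted p = 0.0158), and its call was lost without METTL3-HKD liver 1 (limma adjusted p = 0.0530). Its mean level was below 1 FPKM, and its log2 fold change was 0.70 with a pseudocount of 1 FPKM and 2.82 with voom. Il6 was at 2.85, 0.646, 0.410 and 3.92 FPKM across METTL3-HKD livers 1 to 4, and in METTL3-Flox livers it rested on 3 reads in liver 2 and 0 reads in the other livers. Osm, the hepatocyte-acting cytokine oncostatin M, was at 0.926 to 20.5 FPKM in METTL3-HKD livers, and rested on at most 3 reads in any METTL3-Flox liver. Both were called higher by limma, the call of Osm was lost with voom on the rebuilt reads (adjusted p = 0.0883), and because METTL3-Flox livers were at or near 0 no fold is given. Il6ra, the interleukin-6 receptor of the hepatocyte and named here because it was the 1 gene called lower, fell from 9.35 ± 0.534 to 5.86 ± 0.770 FPKM, by 0.67 on the log2 scale (limma adjusted p = 0.00821), and relative to the hepatocyte markers it did not pass (limma adjusted p = 0.444). The neutrophil sums given with Cebpb separate the groups in the same way as these cytokines, and the part of infiltrating cells was not tested.

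The genes nearest to each member in pattern were found over the 8 livers among 10694 genes whose mean level reached 1 FPKM, as the smallest root mean square distance between centred log2(FPKM + 0.1) profiles. For Cebpa these were Sept4 at 0.0908 and Zfp362 at 0.0939, where the spread of Cebpa itself was 0.511. For Cebpb they were Dgat1 at 0.147 and Cd9 at 0.148, and for Cebpd they were Fcgr3 at 0.180 and Junb at 0.227. Foxa1 lay nearest to Zfp710 at 0.0781 and Siva1 at 0.0966, Foxa2 to Gm10036 at 0.0957 and Fbxo36 at 0.1497, and Foxa3 to Gmppa at 0.0907 and Mri1 at 0.0941. Onecut1 lay nearest to Fam84b at 0.196 and Epop at 0.222, and Prox1 to Vangl1 at 0.117 and Fam53b at 0.120. Among so many candidates some profile is always near, so these distances are a description.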

How the data were processed

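Livers of 4 METTL3-HKD and 4 METTL3-Flox mice were grouped by their labels, which give no sequencing batch. Total RNA libraries were made with a SMARTer mRNA-Seq kit. The authors deposited FPKM for 54532 genes on GRCm38 (mm10, submitters' processing notes). The aligner, counting and strand setting are not given in the sources used here. Rebuilt with gene length and library size, 100% of non-zero values were whole reads (tolerance 0.05). Effective library sizes were 1.18 times larger in METTL3-HKD (ratio of medians). Per read on genes they were 1.01 to 1.17 in METTL3-HKD and 0.840 to 1.01 in METTL3-Flox livers. The deposited values therefore carry a scaling between libraries beyond the number of reads.

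FPKM were compared with limma 3.58.1 in R 4.3.3 (pseudocount 0.1 FPKM, mean of at least 0.1 FPKM, mean-variance trend) and tested on simulated data. Exact permutation tests used scipy 1.17.1 in Python 3.11.15 over all 70 arrangements. Named genes were, in each list, up to 4 called genes with the largest change or the most abundant 2, as far as a result turned on them. The members and lists were chosen with earlier results of these data known. The 7 genes that the hepatocyte marker and target lists share are counted in both. The 19 alternatives comprised other pseudocounts, minima, scalings and weights, voom on rebuilt reads, a replicate block and the omission of each liver. Methylation of RNA was not analysed here.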

Additional observations from a re-analysis of the deposited data

Results flagged for a closer look

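In each group of 4 livers, the gap between the highest or lowest value and its neighbour was compared with the whole range of the group, for 31 genes whose values are given. Chance alone sets apart about 1 in 20 groups, and 4 of 62 groups were set apart, 2 of them among the 16 groups of the lineage factors. Cebpd in METTL3-Flox liver 1 was at 11.4 FPKM, where the next liver was at 6.44 FPKM and the gap was 0.886 of the range. Onecut1 in METTL3-Flox liver 2 was at 3.94 FPKM, where the next liver was at 1.61 FPKM and the gap was 0.854 of the range. S100a8 in METTL3-HKD liver 1 was at 519 FPKM with the next liver at 158 FPKM, a gap of 0.861 of the range. Il6 in METTL3-Flox liver 2 was at 0.0765 FPKM on 3 reads, and the other METTL3-Flox livers had 0 reads.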

How the results depend on the processing

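The members and named genes were recomputed under 19 alternatives, except Trib2, Il6 and Tnf under 18, since they are below the minimum mean of 1 FPKM, and the gene lists under 12. Cebpa stayed lower in all 19 and called in 18, and the differences of Cebpb and Cebpd stayed above 0 and without a call in all 19. Relative to the hepatocyte markers, Cebpa was at -0.50 and 0 members were called lower. By construction that alternative and the scaling to reads on genes add a shift to every gene, which took Foxa1 to 0.21 and 0.0086, Foxa2 to 0.33 and 0.12, Foxa3 to 0.22 and 0.016 and Mettl3 to 0.26 and 0.047, respectively. When 1 liver was left out, Cebpa ranged from -1.01 to -0.75, Foxa2 from -0.23 to 0.025, Prox1 from -0.086 to 0.18 and Onecut1 from 0.25 to 0.79, and 0 to 1 members were called higher, the 1 being Onecut1 without METTL3-Flox liver 2.

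Over all genes, 1506 were called higher and 1104 lower. Scaled to the reads on genes these counts were 2304 and 373, 71 were lower relative to the hepatocyte markers, 682 were lower with no minimum, and 737 to 1653 were higher and 347 to 1123 lower with 1 liver left out. The counts of called genes with 1 liver left out were 1 to 3 for the C/EBP relatives, 1 to 5 for the forkhead genes, 1 to 6 for the liver-enriched factors, 2 to 4 for the targets, 0 to 1 for the acute phase genes (Orm3, named after its value was seen) and 5 to 11 for the upstream genes. With 1 liver left out and 1 C/EBP relative called, that gene was Cebpz, which is no basic leucine zipper factor. Relative to the hepatocyte markers, 1 forkhead gene, Foxn2, and 0 liver-enriched factors were called. Mlxipl and Nr1h4 were the 2 factors called when scaled to the reads on genes. The cause of the other changes was not tested.

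Replicate numbers are shared between groups in the labels. The correlation of deviations of same-numbered livers was 0.0711, -0.0838, -0.0134 and -0.0339. The labels give no pairing beyond that number, and correlations over all genes cannot show whether mice were paired. With the replicate block, Cebpa was at -0.91 (limma adjusted p = 0.0268), 971 genes were called higher and 645 lower, and 2 liver-enriched factors and 5 targets were called. Factors of median-of-ratios scaling were 1.01 in every liver. The deposited values were thus already on that scale, and that alternative could hardly move a value.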

Other observations

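Genes within 100 kb of a member were also looked up. The long noncoding gene 9030622O22Rik, 2.67 kb from Foxa2, fell from 3.67 to 1.85 FPKM (log2 fold change -0.94, limma adjusted p = 0.00914), where Foxa2 itself had a log2 fold change of -0.091. Fam214a, 61.1 kb from Onecut1, fell from 9.13 to 4.003 FPKM (log2 fold change -1.22, limma adjusted p = 0.0158). Near Cebpa, Cebpg at 62.7 kb had a log2 fold change of -0.064 (limma adjusted p = 0.747), and Lrp3 at 78.1 kb fell by 0.40 (limma adjusted p = 0.0312). That was 1 call among 8 neighbours of Cebpa, where 15.7% of all genes were called. Called neighbours were 1 of 1 for Foxa2, 1 of 2 for Onecut1, 1 of 3 for Cebpd, 1 of 5 for Cebpb and 2 of 10 for Foxa3. For Foxa1 and Prox1 they were 0 of 3 and 0 of 2. The neighbours named here were chosen after their values were seen.

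GGACT, a common form of the m6A consensus motif, was counted in the longest coding transcript of each gene in GENCODE M21. Cebpb held 2.66 per kb, above 96.0% of the 13104 tested genes with a coding transcript, whose median was 1.05 per kb. Cebpa held 1.52 per kb, Cebpd 1.33, Foxa1 1.57, Foxa2 0.470, Foxa3 1.47, Onecut1 1.52 and Prox1 0.758. The GC content of the transcript was 67.2% for Cebpb and 62.6% for Cebpa, with a median of 50.2% over those genes. A motif is a description of letters, and methylation was not measured in these libraries.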
